A study of Mus musculus with 6 samples.

Results

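The regulators of DNA methylation and Polycomb silencing followed here were measured in marrow LSK cells (lineage-negative, Sca-1-positive, Kit-positive cells) that did or did not carry an endothelial lineage mark: Dnmt1, Uhrf1, Dnmt3a, Dnmt3b, Tet1, Tet2, Tet3, Ezh2, Ezh1 and Asxl1. They were taken by name, with earlier results of these data known, and all 10 were found among the 22180 genes measured. The cells came from C57Bl6 mice with the Tg(Cdh5-Cre/ERT2) transgene, in which the Cdh5 (VE-cadherin) promoter drives a Cre that tamoxifen activates, crossed to Rosa 26 YFP mice. All animals had tamoxifen on postnatal days 1 to 3, and LSK cells were sorted at postnatal day 27 into YFP-positive cells (3 arrays) and YFP-negative cells (3 arrays). YFP stays on in every descendant of a cell in which Cre was active, so a positive cell need not express Cdh5 itself. The sources used here do not say whether the replicates are separate animals, so the p-values speak only of the spread among these 6 arrays, part or all of which may be technical.

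DNA methylation is written and erased by opposing enzymes. Dnmt3a and Dnmt3b set new methyl marks on cytosine, Dnmt1 copies them onto the new strand after replication, and Uhrf1 brings Dnmt1 to half-methylated DNA. The Tet enzymes oxidise the methyl group, the first step of its removal. Polycomb repressive complex 2 (PRC2) methylates lysine 27 of histone H3 through Ezh2 or its paralog Ezh1, and Asxl1 is the scaffold of the enzyme that removes ubiquitin placed on histone H2A by Polycomb repressive complex 1 (PRC1). In blood, Tet2, Dnmt3a, Asxl1 and Ezh2 are known for mutations in clonal haematopoiesis and myeloid disease, and loss of Dnmt3a or Tet2 favours stem cell self-renewal over differentiation.

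The promoter sequences are shown as a description. Octamers of the set listed below were found for Dnmt1, Uhrf1 and Ezh2, 3 of the 5 genes lower on every YFP-positive array. No octamer was common to all 3, and any link to their levels was not tested. RefSeq windows (assembly GRCm38.p6) from 250 bases before to 50 bases after an annotated start were found for 10 of 10 genes, 15 windows in all. They were searched on both strands for the octamers that E2F factors of the cell cycle bind, TTTGGCGC, TTTCGCGC, TTTCCCGC and TTTGCCGC. The matches lay in 1 window each of Ezh2, Dnmt1 and Uhrf1, 3 of the 15 windows, and 2.26% of all 32851 windows held a match. Each octamer contains CG, and these windows held 31, 33 and 33 CpG dinucleotides, against a median of 7 over all windows. The share over all windows is thus not matched for CpG content. The matches are printed 5′ to 3′ along the gene's strand, with the octamer, or its reverse complement in the first Dnmt1 stretch, in capitals.
Ezh2, chr6:47595010-47595037, minus strand: ggttgctgcgTTTGGCGCtcggtccggt
Dnmt1, chr9:20952825-20952852, minus strand: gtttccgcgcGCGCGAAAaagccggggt
Dnmt1, chr9:20952574-20952600, minus strand: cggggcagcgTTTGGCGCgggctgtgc
Uhrf1, chr17:56304118-56304145, plus strand: ccgagtcgggTTTCGCGCgcccaggcgt
The Ezh2 octamer begins at base 4 after the start, and those of Dnmt1 lie 219 bases before and at base 34 after the third of its annotated starts. In Uhrf1 it lies 185 bases before the downstream of 2 annotated starts. The windows of Tet1 and Dnmt3b, which were also lower on every YFP-positive array, held no octamer. Each match is a description of the letters and not a tested binding site, and the absence of these letters from the other windows says nothing about the factor.

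The 250 bases before the start are given for Uhrf1 (upstream start) and for Ezh1, a gene whose groups overlapped, as an example of each kind. Capitals mark the CCAAT box (CCAAT or ATTGG) and the GC box (GGGCGG or CCGCCC), which do not overlap each other in these stretches. Neither stretch holds an E2F octamer, and that of Uhrf1 lies before its downstream start.
Uhrf1, chr17:56303087-56303336, plus strand: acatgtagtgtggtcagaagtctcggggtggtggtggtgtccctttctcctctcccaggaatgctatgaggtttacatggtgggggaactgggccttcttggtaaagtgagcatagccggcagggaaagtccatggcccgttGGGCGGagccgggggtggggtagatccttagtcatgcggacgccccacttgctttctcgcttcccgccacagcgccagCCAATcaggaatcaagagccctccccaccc
Ezh1, chr11:101226464-101226713, minus strand: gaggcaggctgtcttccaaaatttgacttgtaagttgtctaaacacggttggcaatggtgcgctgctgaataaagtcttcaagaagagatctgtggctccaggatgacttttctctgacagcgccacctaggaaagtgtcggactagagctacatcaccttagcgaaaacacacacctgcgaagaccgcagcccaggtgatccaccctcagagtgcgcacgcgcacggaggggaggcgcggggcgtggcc
The Uhrf1 stretch holds 1 CCAAT box and 1 GC box and the Ezh1 stretch neither. Over the full windows of 300 bases, CCAAT boxes were found in 6 of the 15 windows and in 37.4% of all windows. Those 6 belonged to 4 of the 10 genes (Dnmt1, Ezh2, Tet3 and Uhrf1). GC boxes were found in 11 of the 15 windows, from 8 of the 10 genes, and in 35.7% of all windows. CpG dinucleotides, the sites on which the Dnmt and Tet enzymes act, numbered 57 in the Tet2 window and 2 in the most upstream Dnmt1 window. The other windows of the 10 genes held 12 to 47, against a median of 7 over all windows.

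All arrays lay on nearly one scale, with medians of 3.62 to 3.68 on the log2 scale over all probes, and each of the 10 genes was above the median of the tested genes on every array. The YFP-positive arrays carried the transcripts of endothelium at high level. Of 24 endothelial markers 20 were higher past the threshold, with list means of 8.12 to 8.76 on YFP-positive and 4.62 to 5.11 on YFP-negative arrays, and Cdh5 itself stood at 11.58 ± 0.28 against 4.55 ± 0.85 (SD, n = 3 each). The list of LSK gate genes was lower, 7 of 10 past the threshold, with list means of 5.24 to 6.16 against 7.53 to 7.69. Kit was present in both, at 6.86 ± 0.27 and 7.76 ± 0.20 (SD, n = 3 each), and the gene of Sca-1 was not analysed here. YFP-positive replicate 3 stood apart from its group in its leukocyte markers (list mean 7.80, against 5.93 and 6.02 in replicates 1 and 2 and 8.09 to 8.19 on YFP-negative arrays). Neutrophil markers averaged 9.90 on it, and 9.55 on YFP-negative replicate 3, against 7.21 to 8.52 on the other 4 arrays. Of 13 macrophage markers, 3 were higher past the threshold (Mrc1, Vcam1 and Mertk) and 10 did not pass, with 7 of the 13 below 0 and a list median of -0.03. In bulk samples such as these, fewer cells of a type and less RNA per cell cannot be told apart.

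Dnmt1 and Tet1, 2 of the 10 genes, fell in YFP-positive cells past an adjusted p of 0.05 in the limma fit over all genes, and 0 rose. Uhrf1, Ezh2 and Dnmt3b were lower, and Tet2 higher, on every YFP-positive array than on any YFP-negative array without passing that test. Dnmt3a, Tet3, Ezh1 and Asxl1 overlapped between the populations. The share called was thus 20% for these genes against 4.84% of all genes tested (1.96% lower, 2.88% higher), and 9.35% among genes above the median level, the range in which all 10 lie. Without overlap between the groups were 6 of the 10 genes, 5 lower and 1 higher, against 22.7% of all genes (11.9% lower, 10.8% higher) and 32.2% of those above the median level. The median difference of the 10 genes was -0.48 on the log2 scale and that of all genes -0.01. Since the 10 were chosen with earlier results of these data known, the comparisons with all genes in this paragraph are descriptions and not tests. At an unadjusted p under 0.05 there were 6 of the 10 genes, 1 of them higher (Tet2), where 17.2% of all genes passed, and a linear model without moderation called 0 of the 10. The number past the adjusted threshold was 1 without YFP-positive replicate 1 or 2 or YFP-negative replicate 1 or 2, in each case Dnmt1. It was 4 without YFP-positive replicate 3 (Dnmt1, Tet1, Dnmt3b and Ezh2) and 3 without YFP-negative replicate 3 (Dnmt1, Tet1 and Uhrf1).

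**Figure D1:**
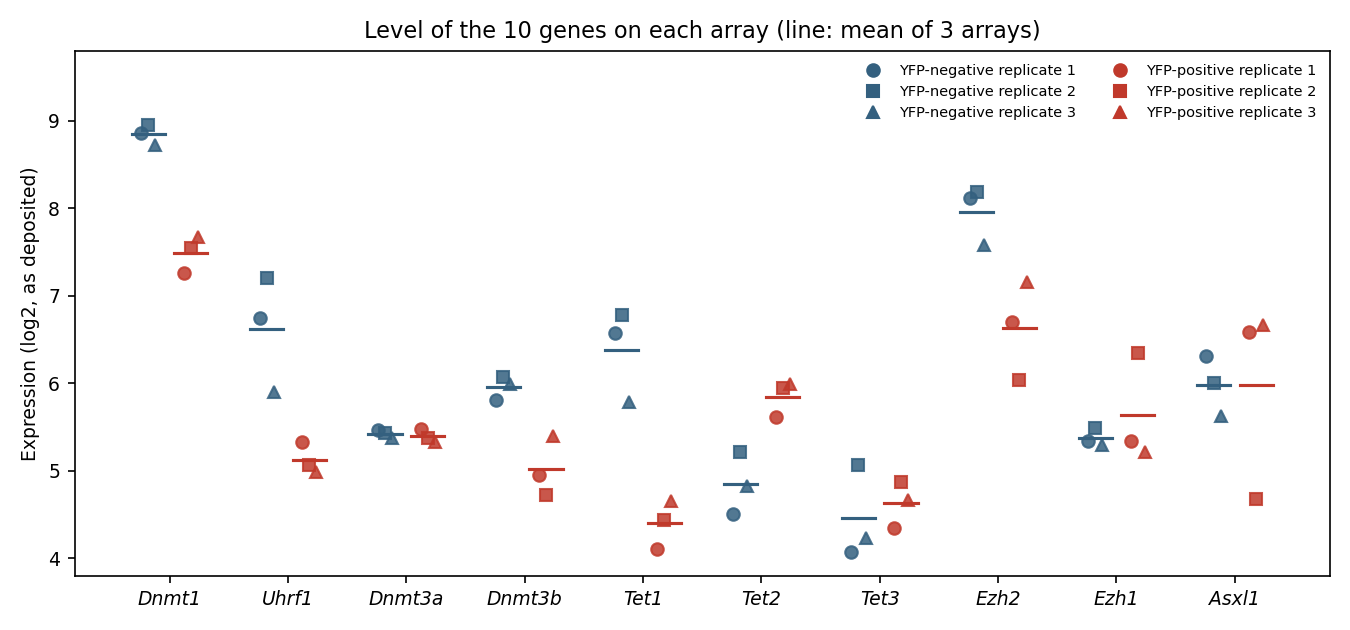
Deposited log2 expression (vertical axis) of the 10 genes on each array, with YFP-negative arrays in blue, YFP-positive arrays in red, the replicate number as the symbol and the mean of 3 arrays as a line. The red and blue points are fully apart for Dnmt1, Uhrf1, Dnmt3b, Tet1, Tet2 and Ezh2, and they overlap for Dnmt3a, Tet3, Ezh1 and Asxl1.

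The maintenance methyltransferase showed the smallest p of the group. Dnmt1 measured 7.26, 7.54 and 7.68 in YFP-positive replicates 1 to 3, and 8.86, 8.95 and 8.72 in YFP-negative replicates 1 to 3. The highest YFP-positive array lay 1.05 below the lowest YFP-negative array, a gap several times the spread within either group (SD 0.21 and 0.12, n = 3 each). Dnmt1 thus fell by 1.36 ± 0.15 (SE) on the log2 scale, or 2.56-fold (95% interval of the difference -1.71 to -1.0, adjusted p = 0.00698). The call held whichever array was left out (adjusted p = 0.00965 to 0.0374).

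Uhrf1, the cofactor that guides Dnmt1 to replicated DNA, measured 5.33, 5.07 and 4.99 on the YFP-positive arrays and 6.75, 7.21 and 5.90 on the YFP-negative arrays. The YFP-positive arrays were close to one another, while YFP-negative replicate 3 was well below the other 2 of its group, and the groups did not overlap. The difference was -1.49 ± 0.33 (SE), 2.81-fold lower, with a 95% interval of -2.30 to -0.68, and did not pass (adjusted p = 0.0687). Without YFP-negative replicate 3 it was -1.85 and passed (adjusted p = 0.0195).

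The de novo enzymes are described next. Dnmt3a was nearly the same on all 6 arrays, with 5.48, 5.38 and 5.33 in the YFP-positive population and 5.47, 5.43 and 5.37 in the other. Its difference of -0.03 ± 0.10 (SE) had a 95% interval of -0.27 to 0.22 (adjusted p = 0.935). That interval was the narrowest among the 10 genes, and a change of more than 0.27 in either direction lies outside it. This bound is that of the 1 probe of Dnmt3a, and whether the probe follows the transcript was not tested. Dnmt3b measured 4.95, 4.72 and 5.40 on YFP-positive arrays, against 5.80, 6.07 and 5.99. YFP-positive replicate 3 came nearest to the YFP-negative arrays, but the groups did not overlap. The difference of Dnmt3b was -0.93 ± 0.20 (SE), 1.91-fold lower, and missed the threshold (adjusted p = 0.0574). It passed without YFP-positive replicate 3 (-1.12, adjusted p = 0.0196).

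Of the Tet oxidases, 1 passed the test. Tet1 had the largest difference of the 10 genes, with 4.10, 4.44 and 4.65 on the YFP-positive arrays and 6.58, 6.78 and 5.78 on the YFP-negative arrays. All YFP-positive values lay at least 1.13 below the lowest YFP-negative value, which was again that of replicate 3. The value on YFP-positive replicate 1 was close to the median of the tested genes there (3.95) and may in part be background. Tet1 fell by 1.98 ± 0.29 (SE), or 3.95-fold (95% interval of the difference -2.70 to -1.27, adjusted p = 0.0197). The call of Tet1 was lost when replicate 1 or 2 of YFP-positive cells (adjusted p = 0.0666 and 0.0656) or of YFP-negative cells (0.0806 and 0.0661) was left out. It held without replicate 3 of either population (0.0322 and 0.0118).

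Tet2, the family member most often mutated in blood, was the one gene of the 10 that was higher on every YFP-positive array. It measured 5.61, 5.94 and 5.99 there, against 4.51, 5.22 and 4.82 on the YFP-negative arrays, with a gap of 0.39 between the groups. The difference was 1.00 ± 0.21 (SE), 2.00-fold, with a 95% interval of 0.48 to 1.51, and did not pass (adjusted p = 0.0585, and 0.0566 to 0.16 when 1 array was left out). Tet3 measured 4.34, 4.87 and 4.67 against 4.07, 5.06 and 4.23, with overlapping groups. YFP-negative replicate 2 was the highest of all 6 arrays and YFP-negative replicate 1 the lowest. The Tet3 difference was 0.17 ± 0.29 (SE, 95% interval -0.54 to 0.88, adjusted p = 0.849), and it ranged from -0.02 without YFP-negative replicate 1 to 0.47 without YFP-negative replicate 2.

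**Figure D2:**
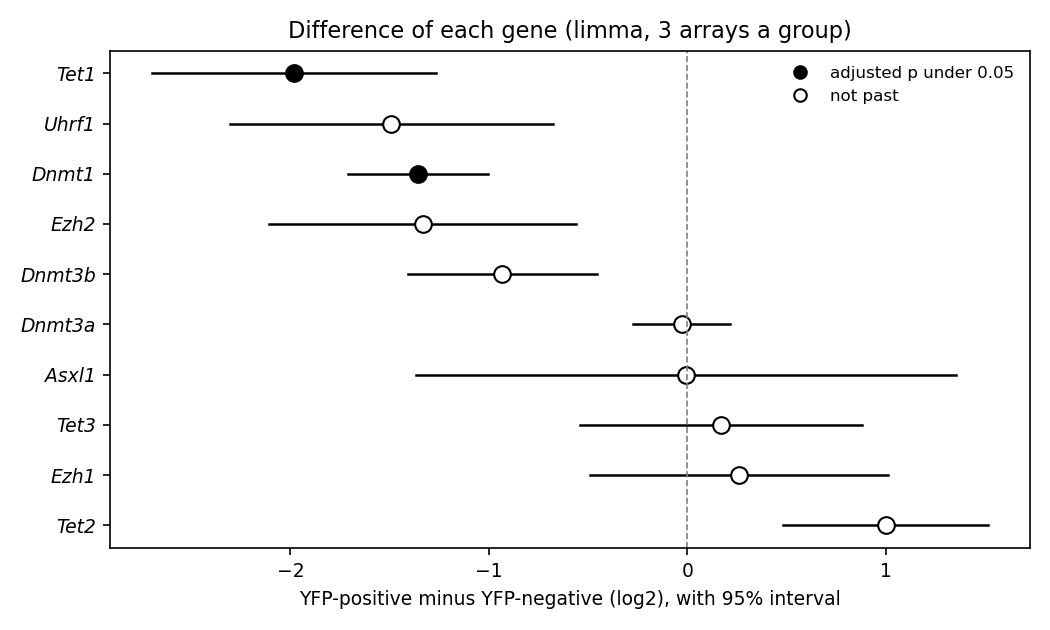
Difference of each gene between the populations (horizontal axis, YFP-positive minus YFP-negative, log2) with its 95% interval from limma, filled where the adjusted p was under 0.05. Tet1 at -1.98 and Dnmt1 at -1.36 are filled, the intervals of Uhrf1, Ezh2, Dnmt3b and Tet2 also leave out 0, and those of Dnmt3a, Asxl1, Tet3 and Ezh1 include it.

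Of the alternative PRC2 methyltransferases, Ezh2 is the form of dividing cells and Ezh1 the one that persists in resting cells. Ezh2 measured 6.69, 6.04 and 7.15 on the YFP-positive arrays and 8.12, 8.19 and 7.58 on the YFP-negative arrays. The groups were 0.43 apart, and in each population replicate 3 lay nearest to the other population. The difference was -1.33 ± 0.32 (SE), 2.52-fold lower (95% interval -2.11 to -0.56, adjusted p = 0.0813), and passed without YFP-positive replicate 3 (-1.60, adjusted p = 0.0451). Ezh1 measured 5.34, 6.35 and 5.21 against 5.34, 5.49 and 5.29. YFP-positive replicate 2 stood apart, and the other 5 arrays lay between 5.21 and 5.49. The Ezh1 difference of 0.26 ± 0.31 (SE, adjusted p = 0.767) turned to -0.10 without that array (adjusted p = 0.821).

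Asxl1, the scaffold of the H2A deubiquitinase, also rested on that array. It measured 6.59, 4.67 and 6.67 in YFP-positive replicates 1 to 3 and 6.31, 6.01 and 5.62 in YFP-negative replicates 1 to 3. Replicate 2 of the YFP-positive arrays was the lowest of all and the other 2 YFP-positive arrays the highest, so the group means were nearly equal (5.97 ± 1.13 and 5.98 ± 0.35, SD, n = 3 each) with a wide 95% interval of the difference, -1.37 to 1.35 (adjusted p = 0.998). Without YFP-positive replicate 2 the difference was 0.65 (adjusted p = 0.274). A second probe, listed for Asxl1 together with another transcript and not used in the fit, averaged 4.17 on YFP-positive against 4.40 on YFP-negative arrays and was not low on that array (4.33).

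Related genes were then set against each other on the same array, which cancels any shift common to a whole array. In all 5 pairs examined the within-array difference did not overlap between the populations. Each pair held a gene whose groups were already apart by itself, so this count is not separate from the single-gene results. The share of other gene pairs without overlap was not computed. Ezh2 minus Ezh1 was 1.35, -0.31 and 1.94 on YFP-positive and 2.78, 2.70 and 2.29 on YFP-negative arrays, a shift of -1.59. The shift was -0.94 without YFP-positive replicate 2, the array on which Ezh1 was high. Tet1 minus Tet2 gave the widest separation, with -1.51, -1.50 and -1.33 against 2.07, 1.57 and 0.96, a shift of -2.98. Dnmt1 minus Dnmt3a shifted by -1.33, Dnmt3a minus Dnmt3b by 0.90 and Tet3 minus Tet2 by -0.83. Each shift had an exact two-sided permutation p of 0.1, the smallest that 3 against 3 arrays allow, and 0.1 after Benjamini-Hochberg adjustment over the 5 pairs, so this design could not take any of them past 0.05. Only the shifts are compared, since the levels of 2 probes on an array cannot be.

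**Figure D3:**
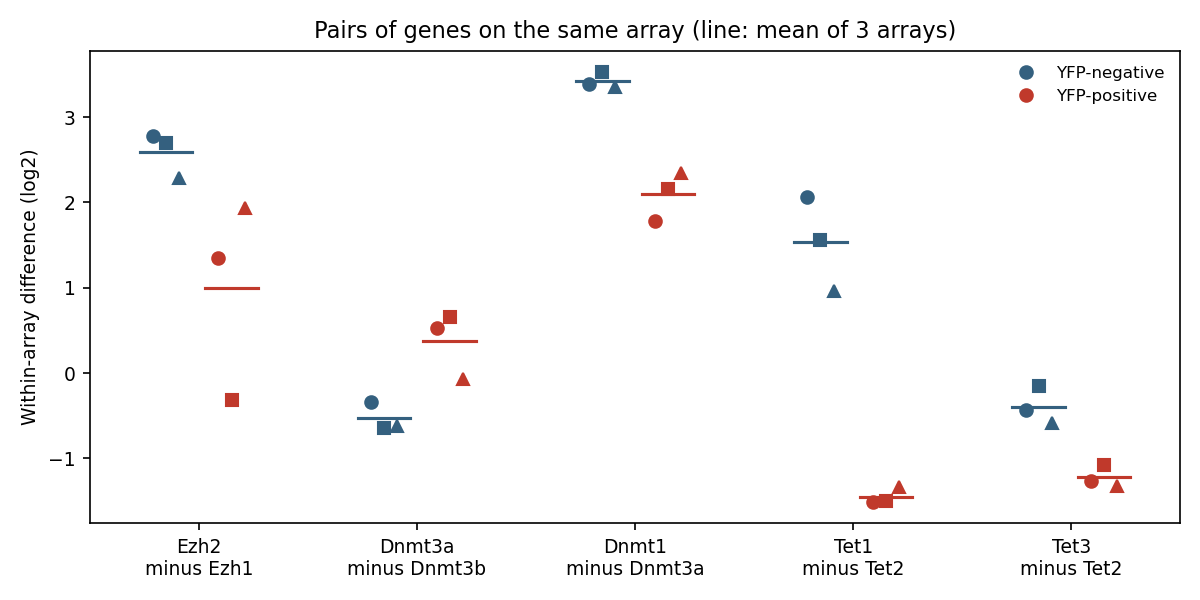
Within-array log2 difference (vertical axis) of 5 pairs of genes, with YFP-negative arrays in blue, YFP-positive arrays in red, the replicate number as the symbol (circle 1, square 2, triangle 3) and the mean of 3 arrays as a line. Tet1 minus Tet2 is below -1.3 on all red points and above 0.9 on all blue points, and Ezh2 minus Ezh1 spreads most among the red points.

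Because Dnmt1, Uhrf1 and Ezh2 are known to rise when cells replicate their DNA, the level of each was set beside cell cycle genes on the same arrays. Against the YFP-negative mean, Dnmt1 lay at -1.59, -1.31 and -1.17 in YFP-positive replicates 1 to 3, and Uhrf1 at -1.29, -1.55 and -1.63. Ezh2 lay at -1.27, -1.92 and -0.81, and Dnmt3b at -1.0, -1.24 and -0.55. Replicate 3 was thus the least lowered of the 3 arrays for Dnmt1, Ezh2 and Dnmt3b, and the most lowered for Uhrf1. On the same scale, the median of 25 measured replication genes was -1.44, -1.39 and -0.71, that of 19 genes of G2 and M phase -1.21, -1.68 and -0.04, and that of 23 leukocyte markers -2.16, -2.30 and 0.06. Past the threshold, 8 of the replication genes, 2 of the G2 and M phase genes and 5 of the leukocyte markers were lower and 0 of each higher, and Mki67, the proliferation antigen, did not pass (-0.95, adjusted p = 0.38, and 0.0195 without YFP-positive replicate 3). Tet1 lay at -2.28, -1.94 and -1.73 and Tet2 at 0.76, 1.10 and 1.14. Endothelial markers were above the YFP-negative mean on all 3 arrays, with medians of 3.39, 3.61 and 2.93. The part of cell composition and of cell cycle in the levels of the 10 genes was not tested.

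**Figure D4:**
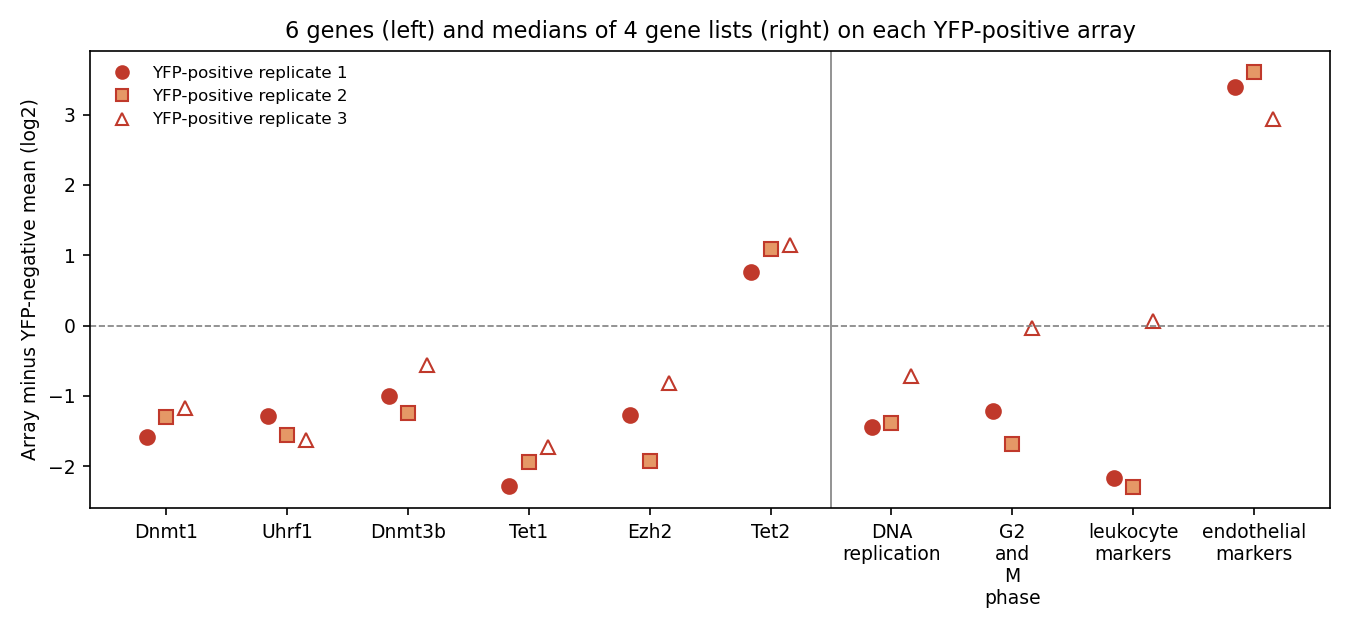
Each YFP-positive array minus the YFP-negative mean (vertical axis, log2) for 6 of the 10 genes, and the median over the genes of 4 lists on the same arrays. Replicate 3 (open triangle) lies close to 0 for G2 and M phase genes and leukocyte markers, at -0.04 and 0.06, while Dnmt1, Uhrf1 and Tet1 are below -1 on all 3 arrays.

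Partner genes of the same machineries, genes that oppose Polycomb and genes that DNA methylation or Polycomb commonly silences were counted in 10 lists. The lists held 122 measured genes besides the 10. Of these 122, 4 fell, 3 rose and 115 did not pass, so 5.74% were called, near the 4.84% of all genes. Above the median level, where 90 of the 122 lay, 9.35% of all genes there were called. The share called among those 90 was not computed. The median difference of the 122 was -0.09. Beside these counts the endothelial list had a median of 3.28 and the leukocyte list of -1.70.

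Among 17 partners of the methylation machinery, 2 fell, 0 rose and 12 had a difference below 0 (median -0.49), as did 51.3% of all genes. Hells, a chromatin remodeller needed for DNA methylation, measured 7.35 ± 0.46 in YFP-negative and 4.29 ± 0.83 in YFP-positive cells (SD, n = 3 each) and fell by 3.05 ± 0.45 (SE, 8.29-fold, adjusted p = 0.0196). On YFP-positive replicates 1 and 2 Hells stood at 3.71 and 3.94, near the medians of the tested genes there (3.95 and 3.93). Such levels may be background, so the size of its fall is uncertain. The call of Hells was lost when replicate 1 or 2 of YFP-positive cells (adjusted p = 0.0609 and 0.067) or of YFP-negative cells (0.0806 and 0.0802) was left out. Trim28, a corepressor that keeps methylation at silenced elements, fell 2.12-fold (-1.08, adjusted p = 0.024), a call that held in 1 of the 6 fits with an array left out, the one without YFP-negative replicate 3 (adjusted p = 0.0306 to 0.094). Of 7 readers of methylated DNA, Zbtb4 rose 1.78-fold (0.83, adjusted p = 0.0246) and 6 did not pass, among them Zbtb33 (-0.52, adjusted p = 0.132). With 1 array left out, Zbtb4 held its call only without YFP-positive replicate 2 (adjusted p = 0.0301 to 0.0952). Of 14 genes that act with or after the Tet enzymes, limma called 0 (3 before adjustment at 0.05, and 0 without moderation). Cxxc5, a protein that binds unmethylated CpG, and Idh2, whose product 2-oxoglutarate the Tet enzymes need, measured -0.81 and -1.50 (adjusted p = 0.0986 and 0.139).

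Of 9 partners of Ezh2 in PRC2, 1 fell, 0 rose and 7 had a difference below 0 (median -0.72), as did 51.3% of all genes. Most of the 9 overlapped between the populations. Rbbp7, a histone-binding subunit, measured 9.55 ± 0.06 in YFP-negative and 7.79 ± 0.37 in YFP-positive cells (SD, n = 3 each) and fell by 1.76 ± 0.20 (SE, 3.38-fold, adjusted p = 0.00832). The call of Rbbp7 held whichever array was left out (adjusted p = 0.0122 to 0.0438). Eed, the subunit that binds methylated lysine 27, measured -1.06 and did not pass (adjusted p = 0.0918). Of 21 PRC1 genes, Pcgf2 rose (4.50 ± 0.37 to 5.57 ± 0.17, SD, n = 3 each, adjusted p = 0.0491) and 20 did not pass, with a median of -0.19. With 1 array left out, Pcgf2 held its call only without YFP-negative replicate 2 (adjusted p = 0.0346 to 0.142), and median centring ended it (0.0565). Its paralog Pcgf1 measured -1.49 (adjusted p = 0.142).

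The H2A deubiquitinase of Asxl1 and the machineries that oppose Polycomb were counted in the same way. Of 8 partners of Asxl1, limma called 0 (0 before adjustment at 0.05, and 0 without moderation), and Bap1, its catalytic subunit, measured -0.78 (adjusted p = 0.398). Neither H3K27 demethylase passed, with -0.18 for Kdm6b and 0.00 for Kdm6a (adjusted p = 0.85 and 0.999). Of 17 Trithorax and MLL genes, which counter Polycomb, limma called 0 (5 before adjustment at 0.05, and 0 without moderation), with a median of -0.33 and the smallest p for Psip1 (-1.20, adjusted p = 0.0712) and Dpy30 (-0.86, adjusted p = 0.112).

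Genes that these systems commonly keep silent were counted as well. Of 12 germline genes known to be silenced by promoter methylation, limma called 0 (2 before adjustment at 0.05, and 0 without moderation), with a median of -0.06. Their list means were 2.82 to 2.97 on all 6 arrays, below the array medians, where a level cannot be told from background. Of 15 known Polycomb targets, Hoxa9, a homeobox factor of blood progenitors, fell (-1.54, adjusted p = 0.00734). Cdkn1c, a cell cycle inhibitor, rose (1.13, adjusted p = 0.0374), a call that held only without YFP-positive replicate 3 when 1 array was left out. The other 13 targets did not pass (list median -0.03). Several of them, like the germline genes other than Ddx4, lay below the median of the tested genes on every array. Ddx4 lay above it on the YFP-negative arrays (4.04, 4.03 and 4.24) and below it on the YFP-positive arrays, and did not pass (-0.28, adjusted p = 0.263).

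**Figure D5:**
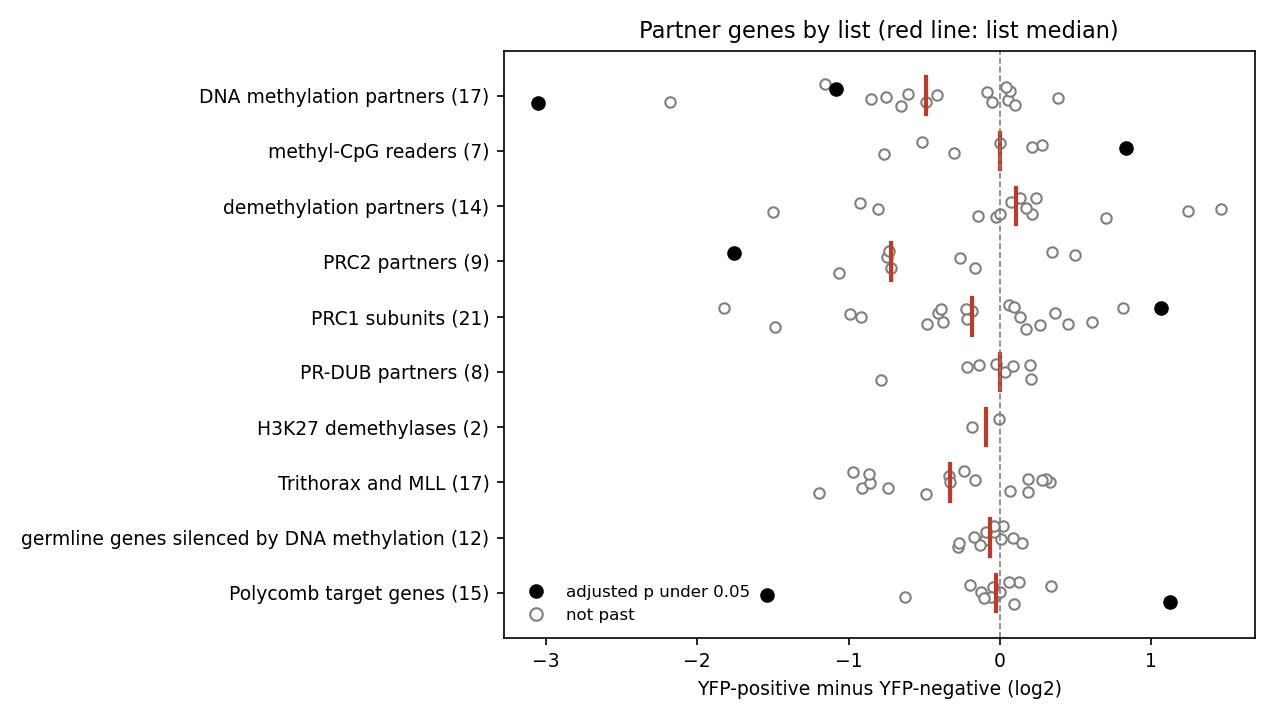
Difference between the populations (horizontal axis, YFP-positive minus YFP-negative, log2) of each gene in 10 lists of partner, opposing and silenced genes. The number measured is in parentheses, points are filled past an adjusted p of 0.05, and a red line gives the list median. The PRC2 partners have the lowest median, -0.72, and Hells and Rbbp7 are filled at -3.05 and -1.76.

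The genes whose 6-array profiles were nearest to those of Dnmt1 and Tet1 are given as a description. Likeness was the root mean square of the differences over the 6 arrays after each profile was centred on its own mean. Nearest to Dnmt1 were Uchl5, a deubiquitinase (0.09), Tcp1, a chaperonin subunit (0.10), and Ipo5, a nuclear import factor (0.11). Nearest to Tet1 were Acot1, an acyl-CoA thioesterase (0.11), Srek1ip1 (0.12) and Dtymk, the thymidylate kinase of DNA synthesis (0.19). Among the 10 genes themselves, Dnmt1 and Dnmt3b had the most similar profiles (0.29), followed by Dnmt3b and Ezh2 (0.33) and by Dnmt1 and Ezh2 (0.35).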

How the data were processed

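From each sorted sample 500 pg of RNA went through Ovation Pico V2 amplification before biotin labelling, per the labels' protocols. The authors deposited log2 expression values, 1 column per array (read as log2 from their range, 1.53 to 13.7), made with Partek, per the submitters' processing notes. How background, probe summaries and normalization were handled is not given in the sources used here. Without detection calls, levels near the bottom of the scale may be background, and the number of arrays limits the precision.

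Probes with exactly 1 symbol (23521 of 41345) were kept, and each gene took its brightest probe. Each of the 10 genes had 1 such probe. Populations were compared with limma 3.58.1 in R 4.3.3 (lmFit and eBayes, two-sided, tested on simulated data), with Benjamini-Hochberg adjustment over 22180 genes. The replicate number, the probe rule, a filter on level, scaling, the variance model and each array were varied. The members and lists were chosen with earlier results of these data known. Named genes of the 10 lists were those past the threshold in a list (at most 8). In a list where fewer than 2 passed, the 2 of smallest p were named. Of the other lists at most 2 genes of smallest p and a few fixed genes could be named, and Mertk was named outside this rule, after its value was seen.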

Additional observations from a re-analysis of the deposited data

How the results depend on the processing

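Leaving out 1 array at a time gave 430 to 1185 called genes in all, against 1074 with all arrays. It gave 1 to 4 of the 10 genes, against 2, and 2 to 5 of the 122 listed genes, against 7. With the replicate number as a block the counts were 580, 1 and 3, and Tet1 lost its call (-1.98, adjusted p = 0.0668) while Dnmt1 kept it (adjusted p = 0.0386). Arrays of one number deviated from their group means only weakly together (r = 0.10, 0.08 and 0.17 over genes), so the number was not taken as a pairing, although each array correlated best with its own number. The unmoderated model called 180, 0 and 0, with Tet1 at -1.98 (adjusted p = 0.13) and Dnmt1 at -1.36 (0.0608). With only genes above the median level, 5 of the 10 passed, adding Tet2 (1.00, adjusted p = 0.0449), Dnmt3b (-0.93, 0.047) and Uhrf1 (-1.49, 0.0413), where fewer genes were tested. Quantile normalization added Dnmt3b (-0.94, 0.0483), and the variance trend left 4 of the 122 listed genes called. The cause of the other changes was not tested. With 1 array left out, Tet1 ranged from -2.28 to -1.78, Dnmt3b from -1.12 to -0.78, Uhrf1 from -1.85 to -1.20 and Ezh2 from -1.60 to -1.04. Differences near 0 changed sign, with ranges of -0.02 to 0.47 for Tet3, -0.0691 to 0.0041 for Dnmt3a, -0.35 to 0.65 for Asxl1 (0.0062 after quantile normalization), -0.10 to 0.47 for Ezh1, -0.43 to 0.0823 for Kdm6b and -0.39 to 0.31 for Kdm6a (0.0204 after quantile normalization). The 5 within-array shifts kept their sign whichever array was left out. Each of the 10 genes had 1 usable probe, so separate probes could not be compared.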
